A study of Mus musculus with 31 samples.

Results

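The nuclear pore complex and the receptors that carry proteins and RNA through it were followed in the mouse uterus after a single dose of 17β-estradiol (E2). The members are the genes whose name on the array is a nucleoporin (Nup with a number), an importin α or β (Kpna, Kpnb), an importin (Ipo), a transportin (Tnpo) or an exportin (Xpo), each read by its brightest probe. The array names 42 such genes among 34797, of which 19 are nucleoporins and 23 are transport receptors. Testing required a probe well above background throughout at least 1 group, which 41 of the 42 members and 26877 genes in all met. All 41 tested members were well above background on all 31 arrays. The member left out, Kpna7, an importin α, was well above background on 2 of 31 arrays, with log2 levels of -8.06 to -5.14 relative to the 75th percentile of the array.

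Pores are large assemblies of nucleoporins set in the nuclear envelope. A scaffold of outer and inner rings holds a central channel lined by proteins rich in phenylalanine and glycine repeats (FG), with filaments on the cytoplasmic face and a basket on the nuclear face. Importins bind cargo in the cytoplasm and release it in the nucleus when they bind the GTP form of the small GTPase Ran, whereas exportins need that form to hold their cargo. In the uterus of ovariectomised rodents, estradiol is known to raise RNA and protein synthesis within hours, well before cells divide.

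The series holds total RNA of the uterus on 31 one-colour arrays in 8 groups of 4, apart from AF2 KO E2 with 3. The groups are wild-type (WT) and mutant (KO) mice of the AF2 line, on C57BL6/J, and of the MISS line, on C57BL6/N, so line and substrain cannot be told apart. All were ovariectomised at 4 weeks of age, kept for 3 weeks on normal chow, and sampled 6 h after castor oil under the skin with 0 (placebo, PLB) or 8 µg/kg of E2. The labels give both alleles only by name; as background from outside them, both are knock-in alleles of Esr1, the gene of estrogen receptor α, so neither KO lacks the receptor. The AF2 receptor has no activation function 2, its ligand-dependent surface for coactivators, and the MISS receptor is absent from the cell membrane. The labels do not say that arrays of a group are separate animals, so p-values measure the spread between these samples.

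Levels are log2 signals relative to the 75th percentile of the same array, so that 0 is that percentile and 1 is a doubling of it. A level on one probe cannot be set against a level on another, so the level of a gene, or the median of the members, is compared only with itself between arrays. Sizes of change are ranked between genes as read on the brightest probes, and another probe of a gene can give another size. Changes are differences of group means on this scale with their standard error (SE) from limma, fitted over all 8 groups. Calls are adjusted p-values under 0.05, by the Benjamini-Hochberg method across the 26877 genes. The number of arrays limits the precision.

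Across the arrays, the 75th percentile ran from 535.8 to 1041.6 signal units, and 62.7% to 77.6% of spots exceeded background clearly, with 0 saturated. Esr1, the altered gene, was lower in AF2 KO than in AF2 WT under placebo (-0.49 ± 0.13, adjusted p = 0.0119) and differed by 0.06 ± 0.13 between MISS KO and MISS WT (adjusted p = 0.955); whether its probe lies in the altered part was not checked. Pgr, the progesterone receptor and a classical target, rose with E2 by 2.40 ± 0.11 in AF2 WT and changed by -0.30 ± 0.12 in AF2 KO (adjusted p = 0.172). All 6 uterine and all 8 epithelial, 7 stromal and 7 smooth muscle markers were well above background on every array.

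Promoters of 5 members, chosen after their values and motifs were seen, are shown first as examples. Kpna2 had the largest rise of all members and Nup50 that of the nucleoporins, Xpot and Ipo7 rose and hold an E-box, and Xpo1 did not pass the test in any genotype. Ipo5, which also rose more than 4-fold in AF2 WT, has 2 matched promoters without an E-box and is not printed. Each run holds the 250 bases before the RefSeq start site on build GRCm38.p6, 5′ to 3′ on the strand of the gene, with motif matches in capitals. The capitals mark 4 motifs on either strand. The E-box, CACGTG, is bound by the MYC and USF families. The CCAAT box is bound by NF-Y. The GC box, searched as GGGCGG, is bound by SP1 and its relatives. The core of the site of nuclear respiratory factor, called the NRF1 core here, was searched as GCGCATGCG. Overlapping matches run together, as in Nup50, where each of 2 blocks holds the NRF1 core on both strands.
Xpot, exportin for tRNA, chr10:121626333-121626582, minus strand: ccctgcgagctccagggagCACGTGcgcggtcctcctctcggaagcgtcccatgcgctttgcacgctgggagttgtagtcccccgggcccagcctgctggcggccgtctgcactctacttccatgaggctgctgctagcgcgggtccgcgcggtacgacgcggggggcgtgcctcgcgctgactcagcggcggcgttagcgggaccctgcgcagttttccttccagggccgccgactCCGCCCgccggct
Ipo7, an importin, chr7:110018065-110018314, plus strand: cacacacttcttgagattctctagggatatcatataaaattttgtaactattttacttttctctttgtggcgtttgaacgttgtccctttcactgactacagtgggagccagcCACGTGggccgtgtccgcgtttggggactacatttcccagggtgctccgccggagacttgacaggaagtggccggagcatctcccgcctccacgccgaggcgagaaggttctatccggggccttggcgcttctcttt
Kpna2, an importin α, chr11:106999526-106999775, minus strand: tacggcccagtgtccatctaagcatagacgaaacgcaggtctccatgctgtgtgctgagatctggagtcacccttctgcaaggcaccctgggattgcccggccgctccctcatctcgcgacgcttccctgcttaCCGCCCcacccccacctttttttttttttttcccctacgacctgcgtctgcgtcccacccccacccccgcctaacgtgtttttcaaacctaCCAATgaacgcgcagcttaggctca
Nup50, a basket nucleoporin, chr15:84923178-84923427, plus strand: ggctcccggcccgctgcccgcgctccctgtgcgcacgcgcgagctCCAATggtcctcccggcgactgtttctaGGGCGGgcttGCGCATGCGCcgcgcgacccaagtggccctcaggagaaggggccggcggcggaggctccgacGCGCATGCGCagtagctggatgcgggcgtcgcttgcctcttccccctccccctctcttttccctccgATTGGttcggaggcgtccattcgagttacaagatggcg
Xpo1, exportin for proteins, chr11:23255791-23256040, plus strand: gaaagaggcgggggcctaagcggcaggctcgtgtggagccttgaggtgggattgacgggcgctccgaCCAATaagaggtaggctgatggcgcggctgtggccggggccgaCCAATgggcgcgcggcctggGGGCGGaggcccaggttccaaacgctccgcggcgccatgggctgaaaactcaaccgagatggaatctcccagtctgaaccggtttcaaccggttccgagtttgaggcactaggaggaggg

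The E-box lies 231 bases before the start in Xpot and 137 in Ipo7. Over the full window, from 250 bases before the start to 50 after it, 41 promoters of 34 member genes were matched among 32851 promoters. The E-box was in 17.1% of the member promoters and 7.15% of all, in Ipo4, Ipo7, Nup188, Nup54, Nup93, Tnpo2 and Xpot. The NRF1 core was in 9.76% against 1.75% of all, in Nup107, Nup50, Nup62 and Xpo5. The CCAAT box was in 53.7% against 37.4% and the GC box in 63.4% against 35.7%, and the median GC content was 64.7% in member promoters and 52.7% in all. The palindromic estrogen response element was in 0 of 41 member promoters and 0.07% of all. These are counts of letters in one window, and no binding was measured. No promoter was matched for Kpna1, Kpna3, Kpna6, Nup35, Nup43, Nup85, Xpo4 or Xpo7.

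In AF2 WT uteri nearly the whole set rose with E2. Of the 41 tested members, 37 were called higher and 0 lower, where 26.8% of all genes were called higher and 31.1% lower. The median change was 0.85, against -0.09 for all genes. For 35 members every E2 array lay above every placebo array, as it did for 23.2% of all genes; the other 6 (Ipo8, Nup214, Nup85, Nup88, Tnpo1 and Xpo1) overlapped. A change of at least 2-fold up was measured for 18 members, and of at least 4-fold for 4 (Kpna2, Xpot, Kpna1 and Ipo5), against 10.6% and 2.63% of all genes. Within single slides the median of the members was 0.81, 0.96, 0.82 and 0.80.

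**Figure D1:**
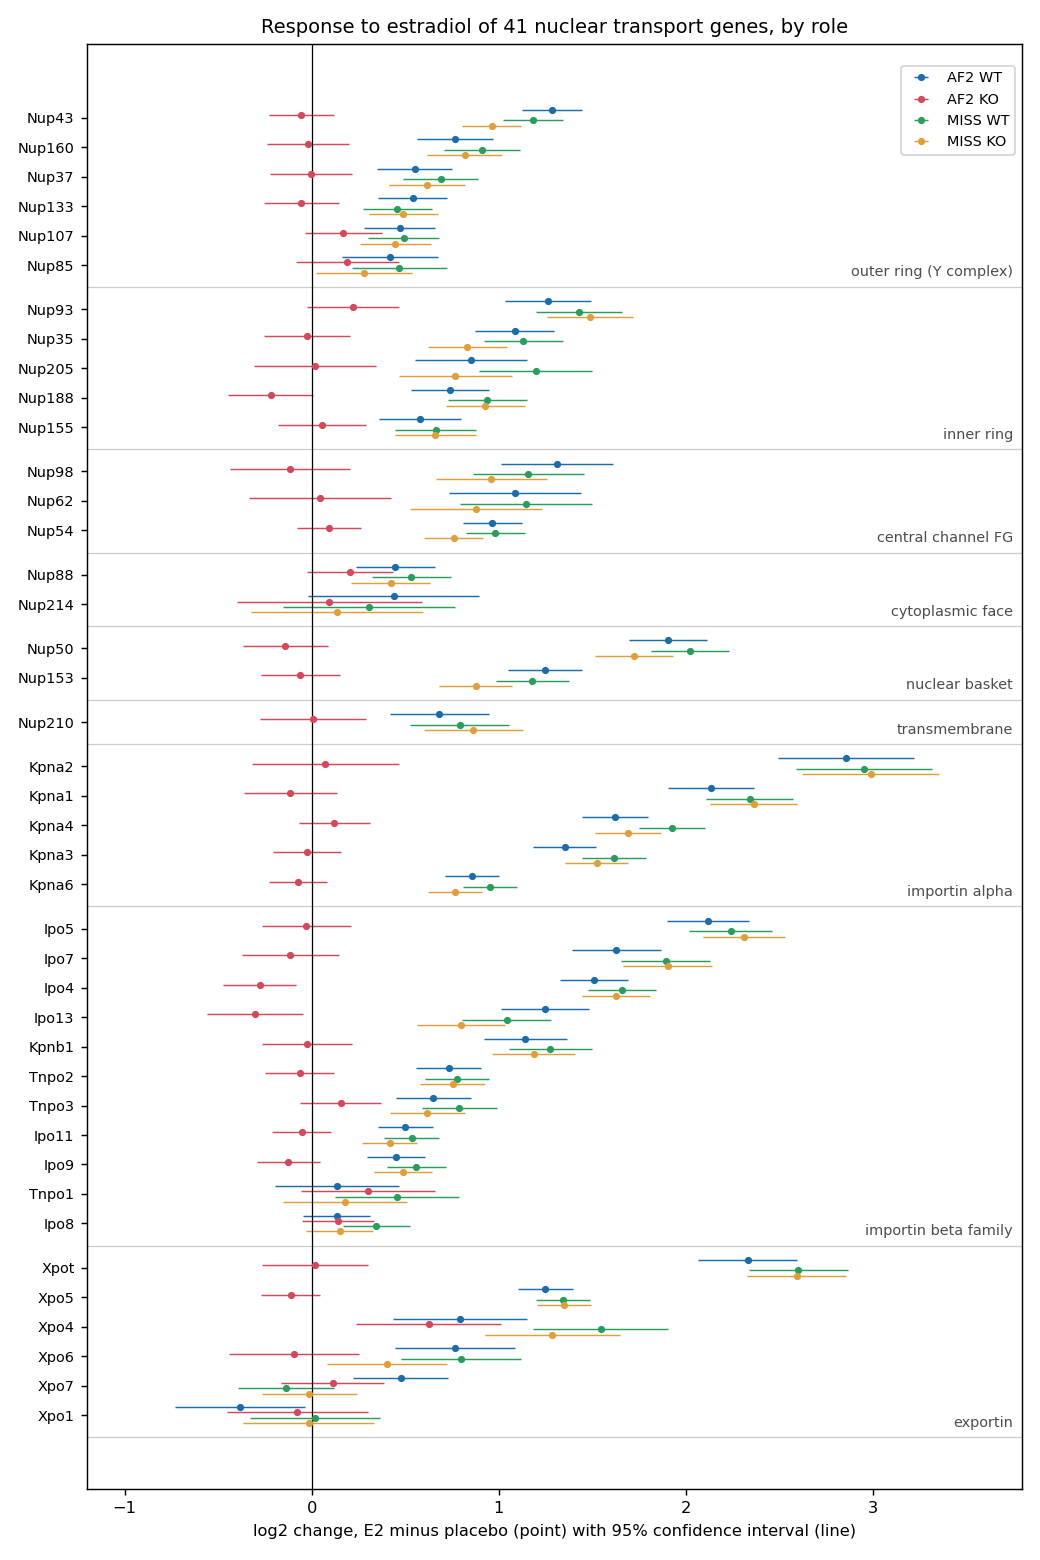
Horizontal axis, log2 change with E2 (E2 minus placebo); points are estimates and lines 95% confidence intervals for the 41 tested members, grouped by role, in AF2 WT, AF2 KO, MISS WT and MISS KO. Kpna2, Xpot, Kpna1 and Ipo5 lie farthest to the right in 3 genotypes, while 40 of 41 AF2 KO intervals stay within 2-fold, the exception being Xpo4.

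Importin α proteins are adaptors that recognise the classical nuclear localisation signal. Their genes showed the highest median change of the roles, 1.62 in AF2 WT and 1.93 in MISS WT, and 5 of 5 rose in each. The basket members were close in AF2 WT, with a median of 1.58, and had 1.60 in MISS WT. Kpna2 (probe on chromosome 11, 106849944 to 106850003 of build mm9) read 1.49, 1.49, 1.29 and 1.08 on the placebo arrays of AF2 WT and 4.33, 4.29, 4.26 and 3.90 on the E2 arrays. In MISS WT, Kpna2 went from 1.25, 1.94, 1.16 and 0.99 to 4.51, 4.42, 4.19 and 4.03. The E2 arrays of both lines stood well apart from the placebo arrays, with a change of 2.86 ± 0.18 in AF2 WT (adjusted p = 2.62e-13), a 7.24-fold rise, and 2.95 ± 0.18 in MISS WT. The other 3 probes of Kpna2 gave 2.98, 3.13 and 3.42 in AF2 WT, so the 4 lay between 2.86 and 3.42.

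Kpna1 (chromosome 16, 36035740 to 36035799 of mm9) read -0.60, -0.76, -0.69 and -0.46 under placebo and 1.36, 1.65, 1.36 and 1.66 under E2 in AF2 WT. In MISS WT, Kpna1 went from -1.03, -0.60, -0.65 and -0.59 to 1.60, 1.64, 1.61 and 1.63. Groups did not overlap in either line, and the change was 2.13 ± 0.11 and 2.34 ± 0.11. Kpna4 rose by 1.62 and Kpna3 by 1.35 in AF2 WT, and Kpna6 by 0.86, with 1.93, 1.62 and 0.96 in MISS WT. Kpnb1, the importin β that carries importin α and its cargo through the channel, rose by 1.14 ± 0.11 and 1.28 ± 0.11.

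Other importins bind their cargo directly. With Kpnb1 counted in, 9 of 11 in the importin β family rose in AF2 WT, with a median of 0.73, and 11 of 11 in MISS WT, with a median of 0.79. Ipo5, which carries ribosomal proteins and histones (chromosome 14, 121347045 to 121347104 of mm9), read 0.29, 0.37, 0.13 and 0.33 under placebo and 2.38, 2.34, 2.32 and 2.58 under E2 in AF2 WT. In MISS WT, Ipo5 went from 0.24, 0.26, 0.11 and 0.03 to 2.47, 2.43, 2.45 and 2.24. The lowest E2 array was far above the highest placebo array in both lines, and the change was 2.12 ± 0.11 and 2.24 ± 0.11; a second probe gave 1.51 in AF2 WT.

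Ipo7, also a carrier of ribosomal proteins (chromosome 7, 117194867 to 117194926 of mm9), read -3.33, -3.1, -3.56 and -3.33 and rose to -1.83, -1.66, -1.73 and -1.60 in AF2 WT. In MISS WT, Ipo7 went from -3.29, -2.98, -3.09 and -3.03 to -1.14, -1.44, -1.09 and -1.15. Its groups did not overlap, and it rose by 1.63 ± 0.12 and 1.89 ± 0.12. Ipo4 rose by 1.51 and Ipo13 by 1.25 in AF2 WT. Smaller rises were seen for Tnpo2 (0.73), whose protein carries RNA-binding proteins, for Tnpo3 (0.65), which carries splicing factors, and for Ipo11 (0.50) and Ipo9 (0.45). Of 2 probes for Ipo11 the dim one went the other way, by -0.67 ± 0.22.

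Tnpo1 and Ipo8 made the exceptions in AF2 WT. Tnpo1, the main transportin of RNA-binding proteins, changed by 0.14 ± 0.16 there (adjusted p = 0.492) and rose by 0.46 ± 0.16 in MISS WT (adjusted p = 0.0167). Ipo8 changed by 0.13 ± 0.09 (adjusted p = 0.194) and rose by 0.35 ± 0.09 in MISS WT (adjusted p = 0.00114). The test of the difference between the 2 wild-type responses called neither (0.32 for Tnpo1, adjusted p = 0.44; 0.21 for Ipo8, adjusted p = 0.316).

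Among the exportins 5 of 6 rose in AF2 WT, with a median of 0.78, and 4 of 6 in MISS WT, with a median of 1.07. Xpot, which exports tRNA (chromosome 10, 121024527 to 121024586 of mm9), read 0.74, 0.93, 0.85 and 0.71 under placebo and 3.25, 3.04, 3.35 and 2.92 under E2 in AF2 WT. In MISS WT, Xpot went from 0.82, 0.81, 0.57 and 0.40 to 3.36, 3.42, 3.42 and 2.81. No E2 array came near the placebo range, and the rise was 2.33 ± 0.13 (5.03-fold) and 2.60 ± 0.13 (6.06-fold); a second, dim probe gave 2.30 in AF2 WT.

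Xpo5, which exports precursors of microRNAs, read -0.25, -0.41, -0.36 and -0.22 and rose to 0.85, 1.01, 0.90 and 1.0 in AF2 WT. In MISS WT, Xpo5 went from -0.33, -0.15, -0.10 and -0.16 to 1.14, 1.19, 1.22 and 1.08. The groups were tight and separate, and the rise was 1.25 ± 0.07 and 1.34 ± 0.07. Xpo6, which exports actin, rose by 0.77 and 0.80.

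Xpo1, the exportin of proteins with a leucine-rich export signal (chromosome 11, 23196643 to 23196702 of mm9), was not called in either wild type. It read 1.89, 2.15, 2.06 and 2.36 under placebo and 1.51, 1.80, 1.59 and 2.03 under E2 in AF2 WT, and these ranges overlapped. In MISS WT, Xpo1 read 2.37, 2.04, 2.14 and 2.46 and then 1.91, 2.13, 2.29 and 2.74, with no separation. The change was -0.38 ± 0.17 in AF2 WT (95% confidence interval -0.73 to -0.03, adjusted p = 0.056) and 0.02 ± 0.17 in MISS WT (interval -0.33 to 0.37). The AF2 WT value was called lower without placebo replicate 1 (-0.46) or E2 replicate 4 (-0.48), with quantile normalization (-0.60), with the values of the authors' matrix (-0.57) and with slide as a block (-0.38). Its second probe changed by -0.32 (adjusted p = 0.114).

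Xpo4 and Xpo7 were picked after their values were seen, because the lines or genotypes differed. Xpo7 read 0.53, 0.39, 0.61 and 0.65 under placebo and 0.98, 1.13, 0.83 and 1.15 under E2 in AF2 WT, a rise of 0.48 ± 0.12. In MISS WT, Xpo7 read 0.76, 0.11, 0.38 and 0.47 and 0.44, 0.43, 0.14 and 0.15, a change of -0.14 ± 0.12. It was thus separate in AF2 WT and overlapping in MISS WT, and it was the 1 member whose wild-type responses were called different (MISS WT minus AF2 WT -0.61 ± 0.18, adjusted p = 0.0262), where 3.2% of all genes were called in that direction. The second probe of Xpo7 fell in AF2 WT (-0.35 ± 0.10) and gave a difference between lines of 0.14 (adjusted p = 0.602). The call was also lost with the authors' matrix (-0.49), with the mean of its probes (-0.24), with only the 4 wild-type groups in the fit, and without MISS WT placebo replicate 1 (-0.50), MISS WT E2 replicate 3 (-0.56), AF2 WT placebo replicate 2 (-0.56), or AF2 WT E2 replicate 2 (-0.58) or 4 (-0.57).

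Xpo4 read -1.51, -1.84, -1.75 and -2.34 and -1.02, -1.08, -1.0 and -1.18 in AF2 WT, a rise of 0.79 ± 0.17. In MISS WT, Xpo4 went from -2.01, -2.30, -2.56 and -2.44 to -0.53, -0.78, -0.84 and -0.98, a rise of 1.55 ± 0.17. All E2 arrays were higher in both lines, and the difference between the lines, 0.75 ± 0.25, missed the threshold (adjusted p = 0.055). It was called without MISS WT placebo replicate 1 (0.86), MISS WT E2 replicate 4 (0.82) or AF2 WT placebo replicate 4 (0.91), with normexp background correction (0.68) and with slide as a block (0.75).

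**Figure D2:**
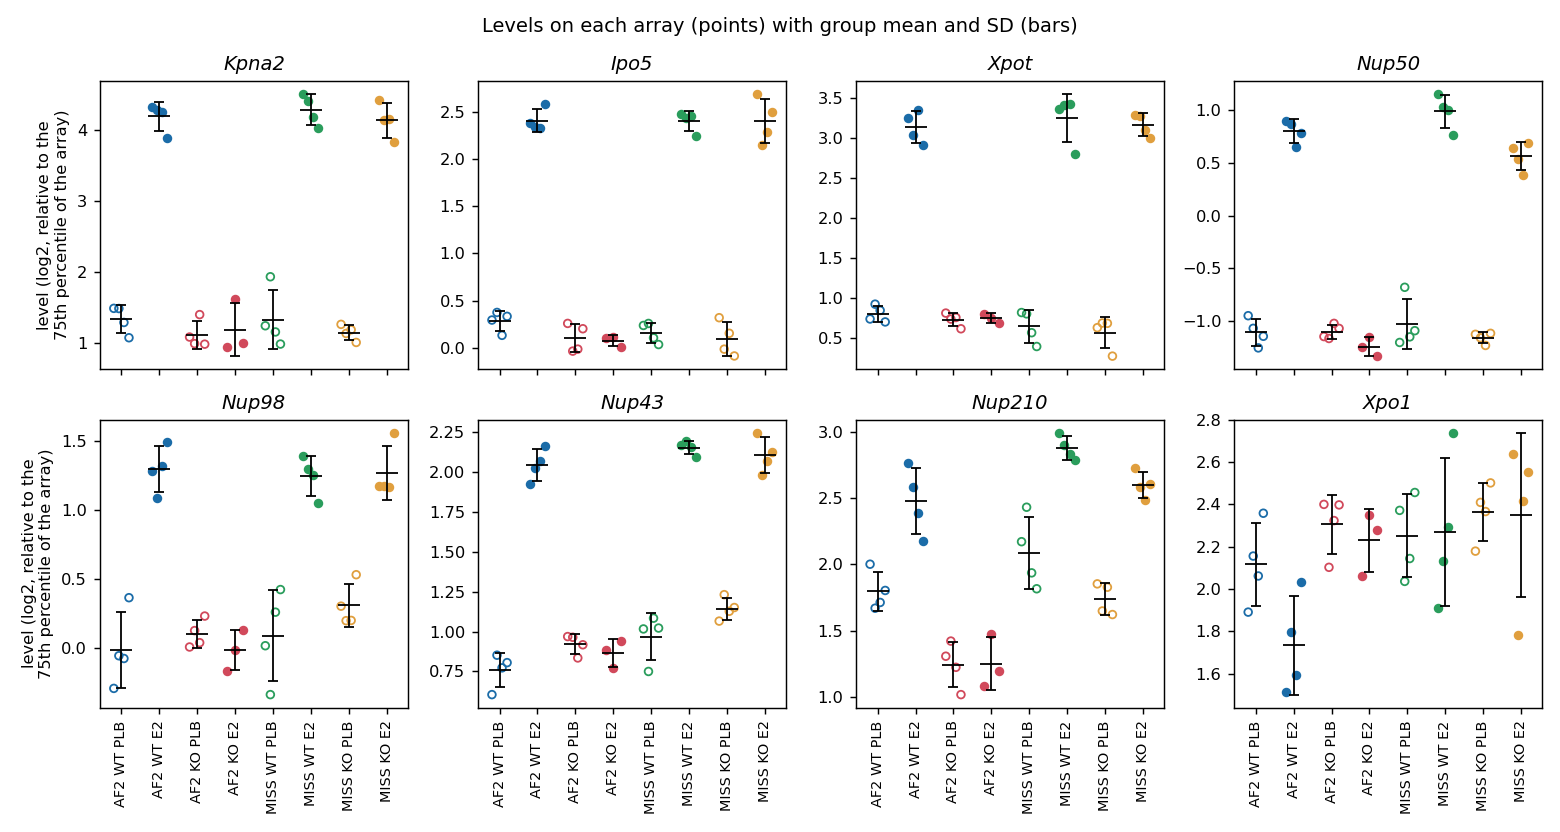
Levels of 8 members on each array (points; log2 relative to the 75th percentile of the array) in the 8 groups, with group mean and SD (bars). For Kpna2, Ipo5, Xpot, Nup50, Nup98 and Nup43 the E2 arrays of AF2 WT, MISS WT and MISS KO stand above all placebo arrays and those of AF2 KO do not; Nup210 is lower in both AF2 KO groups than in AF2 WT, and Xpo1 overlaps between placebo and E2 within each genotype.

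Of the nucleoporins, 18 of 19 rose in AF2 WT, with a median of 0.77, and 18 of 19 in MISS WT; the receptors gave 19 of 22, with a median of 1.0, and 20 of 22. Both members of the basket rose, with a median of 1.58 in AF2 WT, Nup50 by more than Nup153. Tpr, a basket protein named outside the rule, was not called in AF2 WT (0.57 ± 0.33, adjusted p = 0.154). It was called higher in MISS WT (0.84 ± 0.33, adjusted p = 0.0326). Nup50, which binds importin α and helps it let go of its cargo (chromosome 15, 84770217 to 84770276 of mm9), read -0.95, -1.07, -1.25 and -1.14 under placebo and 0.90, 0.87, 0.65 and 0.79 under E2 in AF2 WT. In MISS WT, Nup50 went from -1.2, -0.68, -1.15 and -1.09 to 1.16, 1.03, 1.01 and 0.77. It moved from below the 75th percentile of the array to above it in both lines, by 1.91 ± 0.10 and 2.02 ± 0.10.

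Nup153, the anchor of the basket, read 1.62, 1.88, 1.76 and 1.54 and rose to 3.03, 2.97, 3.02 and 2.77 in AF2 WT. In MISS WT, Nup153 went from 1.71, 1.78, 1.60 and 1.60 to 2.99, 2.91, 2.85 and 2.66. The ranges did not meet, and the rise was 1.25 ± 0.10 and 1.18 ± 0.10.

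The FG nucleoporins of the central channel, which form its barrier and touch the receptors as they pass, all rose (3 of 3, median 1.09 in AF2 WT and 1.15 in MISS WT). Nup98 (chromosome 7, 109283092 to 109283151 of mm9) read -0.29, -0.06, -0.08 and 0.36 under placebo and 1.28, 1.08, 1.32 and 1.49 under E2 in AF2 WT. In MISS WT, Nup98 went from 0.01, -0.34, 0.26 and 0.42 to 1.39, 1.30, 1.25 and 1.05. Placebo values were spread over a wide range in MISS WT but stayed below all E2 values, and the rise was 1.31 ± 0.14 and 1.16 ± 0.14. The gene also encodes Nup96 of the outer ring, and the array value cannot separate the products.

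Nup62 read 3.65, 3.65, 3.72 and 3.34 and rose to 4.94, 4.68, 4.88 and 4.22 in AF2 WT. In MISS WT, Nup62 went from 3.45, 3.50, 3.28 and 3.15 to 4.76, 4.56, 4.46 and 4.18. The array on slide 4 was the lowest in each of these 4 groups, and the rise was 1.09 ± 0.17 and 1.15 ± 0.17. Nup54, its partner in the channel, rose by 0.97 and 0.98.

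The inner ring, which ties the scaffold to the membrane and the channel, rose in full (5 of 5, median 0.85 in AF2 WT and 1.13 in MISS WT). Nup93, its central linker, read 1.89, 1.87, 1.96 and 1.54 under placebo and 3.13, 3.2, 3.15 and 2.83 under E2 in AF2 WT. In MISS WT, Nup93 went from 1.70, 1.86, 1.69 and 1.44 to 3.15, 3.2, 3.05 and 3.02. The ranges did not meet, and the change was 1.26 ± 0.11 and 1.43 ± 0.11; a second, dim probe gave 0.54 in AF2 WT and was not called.

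Nup35, a membrane-binding ring protein also known as Nup53, read 1.70, 1.92, 1.71 and 1.87 and rose to 2.72, 3.0, 2.71 and 3.12 in AF2 WT. In MISS WT, Nup35 went from 1.91, 1.76, 2.10 and 2.07 to 3.14, 3.05, 3.06 and 3.12. It rose by 1.09 ± 0.10 and 1.13 ± 0.10, and the second probe gave 1.07 in AF2 WT. Of the large ring proteins Nup205 rose by 0.85, Nup188 by 0.74 and Nup155 by 0.58 in AF2 WT, with 1.2, 0.94 and 0.66 in MISS WT.

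All 6 members of the outer ring, or Y complex, the coat-like scaffold that also sits at kinetochores in mitosis, rose. Their median, 0.55 in AF2 WT and 0.59 in MISS WT, was below that of the inner ring members. Sec13 and Seh1l, Y-complex subunits named outside the rule, rose by 1.60 and 0.97 in AF2 WT and by 2.16 and 1.06 in MISS WT. Nup43 (chromosome 10, 7398371 to 7398430 of mm9) read 0.60, 0.85, 0.77 and 0.81 under placebo and 1.92, 2.02, 2.07 and 2.16 under E2 in AF2 WT. In MISS WT, Nup43 went from 1.02, 0.75, 1.08 and 1.02 to 2.17, 2.19, 2.15 and 2.09. Its groups were far apart in both lines, and the rise was 1.29 ± 0.08 and 1.18 ± 0.08.

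Nup160 read -0.43, -0.32, -0.24 and -0.06 and rose to 0.38, 0.53, 0.36 and 0.74 in AF2 WT. In MISS WT, Nup160 went from -0.28, -0.34, -0.10 and -0.12 to 0.72, 0.60, 0.89 and 0.59. The smaller rise, 0.77 ± 0.10 and 0.91 ± 0.10, still left no overlap. The other Y-complex members rose by 0.55 (Nup37), 0.54 (Nup133), 0.47 (Nup107) and 0.42 (Nup85) in AF2 WT.

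On the cytoplasmic face, where exported cargo is released, only Nup88 of 2 members was called in AF2 WT. Genes of that face named outside the rule are no members. Of these, Ranbp2 and Nupl2 were called higher in AF2 WT (0.86 and 0.76) and Gle1 lower (-0.33). Nup88 read 1.39, 1.56, 1.97 and 1.65 under placebo and 1.95, 2.04, 2.28 and 2.08 under E2, overlapping through placebo replicate 3. In MISS WT, Nup88 went from 1.62, 1.53, 1.61 and 1.61 to 2.01, 2.01, 2.28 and 2.20, with no overlap. It rose by 0.45 ± 0.10 and 0.53 ± 0.10, and the AF2 WT call was lost with quantile normalization (0.22) and with the authors' matrix (0.21).

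Nup214, the partner of Nup88, varied between arrays of a group, at -3.51, -4.03, -2.91 and -3.26 under placebo and -2.74, -3.17, -2.80 and -3.24 under E2 in AF2 WT. In MISS WT, Nup214 read -2.79, -3.09, -3.47 and -3.48 and then -2.75, -2.89, -3.06 and -2.90. Both pairs of groups overlapped, and the change was 0.44 ± 0.22 (adjusted p = 0.0963) and 0.31 ± 0.22 (adjusted p = 0.239). In AF2 WT it was called higher without placebo replicate 3 (0.61) and under quantile normalization (0.68), median scaling (0.66), the authors' matrix (0.50) and slide as a block (0.44).

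Nup210, a membrane-spanning nucleoporin (chromosome 6, 90963064 to 90963123 of mm9), read 2.0, 1.67, 1.71 and 1.80 under placebo and 2.76, 2.58, 2.39 and 2.18 under E2 in AF2 WT. In MISS WT, Nup210 went from 2.17, 2.43, 1.94 and 1.82 to 3.0, 2.90, 2.84 and 2.79. The E2 arrays were higher without overlap in both, and the rise was 0.68 ± 0.13 and 0.79 ± 0.13. A second, dimmer probe changed by 0.28 in AF2 WT and was not called.

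Across MISS WT as a whole, 38 of 41 members were called higher and 0 lower, where 33.8% of all genes were called higher and 28.1% lower. The median was 0.98 against 0.13 for all genes, and 0.89 to 1.12 within single slides. Every E2 array lay above every placebo array for 38 members, against 29.9% of all genes, and 20 members rose at least 2-fold (14.7% of all genes). Of the 41 members, 36 were called higher in both wild types, Nup214 and Xpo1 in neither. The sizes ran in parallel, with Pearson r = 0.956 and Spearman rho = 0.959 over the 41 members between the AF2 WT and MISS WT changes, and r = 0.845 over all 26877 genes. These points share slides, probes and processing, and genes are not independent replicates.

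**Figure D3:**
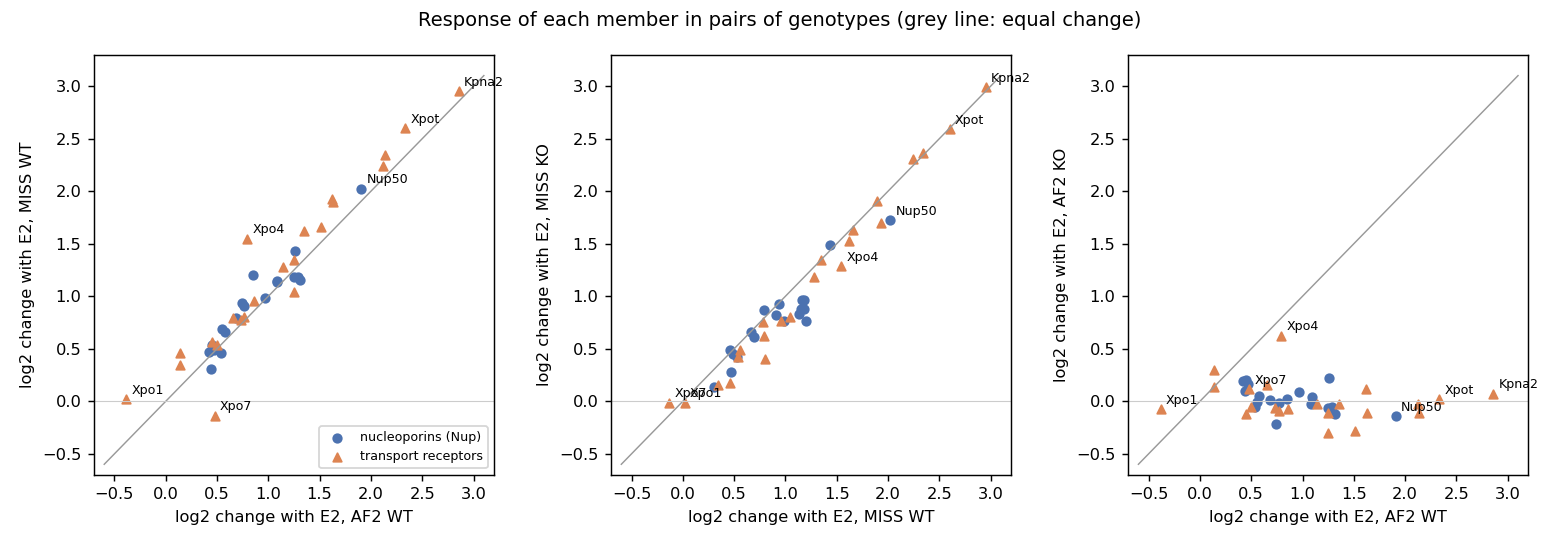
Log2 change with E2 of each of the 41 members in one genotype against another (circles, nucleoporins; triangles, transport receptors; grey line, equal change): AF2 WT against MISS WT, MISS WT against MISS KO, and AF2 WT against AF2 KO. Members follow the line in the first 2 pairs, and in the third 39 of 41 change less in AF2 KO than in AF2 WT (not Ipo8 and Tnpo1), with Xpo4 highest on the AF2 KO axis at 0.63.

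In AF2 KO uteri no member was called with E2. The count was 0 of 41 by limma, where 3.96% of all genes were called in either direction, and 3 of 41 had an unadjusted p under 0.05. The median change was -0.02, against 0.07 for all genes, and -0.06, -0.02 and 0.07 within the 3 slides that hold both groups. The 95% confidence interval stayed within 2-fold for 40 of 41 members, the exception being Xpo4. E2 arrays were all above the placebo arrays for 2 members (Ipo8 and Nup88; 11.6% of all genes) and all below for 2 (Ipo4 and Ipo13; 5.2% of all genes).

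The receptors that rose most in AF2 WT overlapped between placebo and E2 in AF2 KO. Kpna2 read 1.09, 1.0, 1.4 and 0.99 under placebo and 0.95, 1.62 and 1.01 under E2 in AF2 KO (0.07 ± 0.19), and Kpna1 read -0.70, -0.73, -0.58 and -0.43 and -0.68, -0.79 and -0.71 (-0.11 ± 0.12). Xpot, the tRNA exportin, read 0.82, 0.74, 0.76 and 0.62 and 0.81, 0.76 and 0.69 (0.02 ± 0.14). The placebo and E2 arrays of these 3 genes shared one range. Ipo5 read 0.26, -0.04, -0.01 and 0.20 and 0.10, 0.11 and 0.01 (-0.03 ± 0.12), Ipo7 read -3.38, -3.63, -3.14 and -3.11 and -3.32, -3.49 and -3.48 (-0.11 ± 0.13), and Xpo5 read -0.28, -0.21, -0.12 and -0.13 and -0.36, -0.24 and -0.30 (-0.11 ± 0.08). Xpo1, which was not called in the wild types either, read 2.40, 2.10, 2.32 and 2.40 and 2.06, 2.35 and 2.28 (-0.08 ± 0.18).

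Among the pore proteins, Nup50 read -1.15, -1.16, -1.02 and -1.07 under placebo and -1.25, -1.15 and -1.33 under E2 (-0.14 ± 0.11), and Nup153 read 1.89, 1.86, 1.76 and 1.58 and 1.82, 1.68 and 1.63 (-0.06 ± 0.10). Nup98 read 0.01, 0.12, 0.04 and 0.23 and -0.17, -0.02 and 0.13 (-0.12 ± 0.16), and Nup62 read 3.66, 3.66, 3.4 and 3.06 and 3.71, 3.4 and 3.36 (0.04 ± 0.18). Placebo and E2 arrays overlapped for all 4. In the scaffold, Nup93 read 1.78, 1.98, 2.16 and 1.69 and 2.31, 2.08 and 1.99 (0.22 ± 0.12), Nup35 1.86, 1.87, 1.88 and 1.98 and 1.74, 1.84 and 2.03 (-0.02 ± 0.11). Nup43 read 0.97, 0.96, 0.83 and 0.92 and 0.88, 0.77 and 0.94 (-0.06 ± 0.08), and Nup160 -0.11, -0.26, -0.17 and -0.21 and -0.29, -0.16 and -0.16 (-0.02 ± 0.11). Neither ring had a called member. Nup88 read 1.59, 1.54, 1.71 and 1.5 and 1.79, 1.82 and 1.76 (0.21 ± 0.11), with every E2 array above the placebo arrays but no call (adjusted p = 0.352), and Nup214 read -3.14, -3.28, -3.39 and -3.69 and -3.02, -3.27 and -3.55 (0.09 ± 0.24).

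The 3 members with an unadjusted p under 0.05 in AF2 KO were Xpo4, Ipo4 and Ipo13, named here after their values were seen. Xpo4 read -2.40, -2.09, -2.5 and -2.40 under placebo and -1.18, -1.83 and -2.16 under E2, a change of 0.63 ± 0.19 (adjusted p = 0.0611) that its second probe, at -0.09, did not share. It was called without E2 replicate 3 (0.84), with normexp background correction (0.53) and with slide as a block (0.64). Ipo4 and Ipo13 changed by -0.28 ± 0.10 (adjusted p = 0.105) and -0.30 ± 0.12 (adjusted p = 0.189), opposite to their rise in AF2 WT. Ipo4 was called lower with normexp (-0.31), quantile normalization (-0.29), median scaling (-0.46) and slide as a block (-0.25). Median scaling called 6 members lower in AF2 KO (Ipo13, Ipo4, Ipo9, Kpna6, Nup188 and Xpo5, by -0.26 to -0.48). The share of all genes called under that scaling is not given here, so the 6 cannot be set against it. Median scaling also moved the median of all genes in AF2 KO from 0.07 to -0.11, and in AF2 WT from -0.09 to 0.13.

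The difference between the AF2 KO and AF2 WT responses was itself tested. It was called lower in the KO for 32 of 41 members and higher for 0, where 21.8% of all genes were lower and 31.2% higher. The median difference was -0.87, against 0.23 for all genes, and -0.98, -0.91 and -0.76 within the 3 slides with all 4 groups. The largest differences were -2.78 ± 0.26 for Kpna2 (adjusted p = 2.14e-09), -2.31 ± 0.19 for Xpot and -2.25 ± 0.17 for Kpna1. Ipo5 and Nup50 followed with -2.15 ± 0.16 and -2.05 ± 0.15, and Ipo7 with -1.74 ± 0.17.

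By role the lower responses were 15 of 19 nucleoporins and 17 of 22 receptors. All 5 inner ring, 3 FG, 2 basket and 5 importin α members and Nup210 were among them, as were 4 of 6 in the outer ring, 9 of 11 in the importin β family and 3 of 6 exportins, but 0 of 2 on the cytoplasmic face. Of the genes of that face outside the naming rule, Ranbp2 (-0.74) and Nupl2 (-0.95) had a called lower response, and Gle1 (0.33) had no called difference. Tpr, of the basket and also outside the rule, had no called difference either (-0.53, adjusted p = 0.382). Examples of the pore are Nup98 (-1.43 ± 0.21), Nup43 (-1.34 ± 0.11), Nup153 (-1.31 ± 0.14), Nup35 (-1.11 ± 0.15) and Nup160 (-0.79 ± 0.14). Nup210 differed by -0.67 ± 0.19 (adjusted p = 0.00396), a call lost with quantile normalization (-0.40), the authors' matrix (-0.38) and the mean of its probes (-0.42). Nup93 differed by -1.04 ± 0.16, a call lost with the mean of its probes (-0.51). Of the members that rose in AF2 WT, Nup107, Nup85, Nup88, Xpo4 and Xpo7 had no called difference, with values from -0.36 to -0.17. Nup88 (-0.24 ± 0.15) was called without AF2 WT placebo replicate 3 (-0.35).

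**Figure D4:**
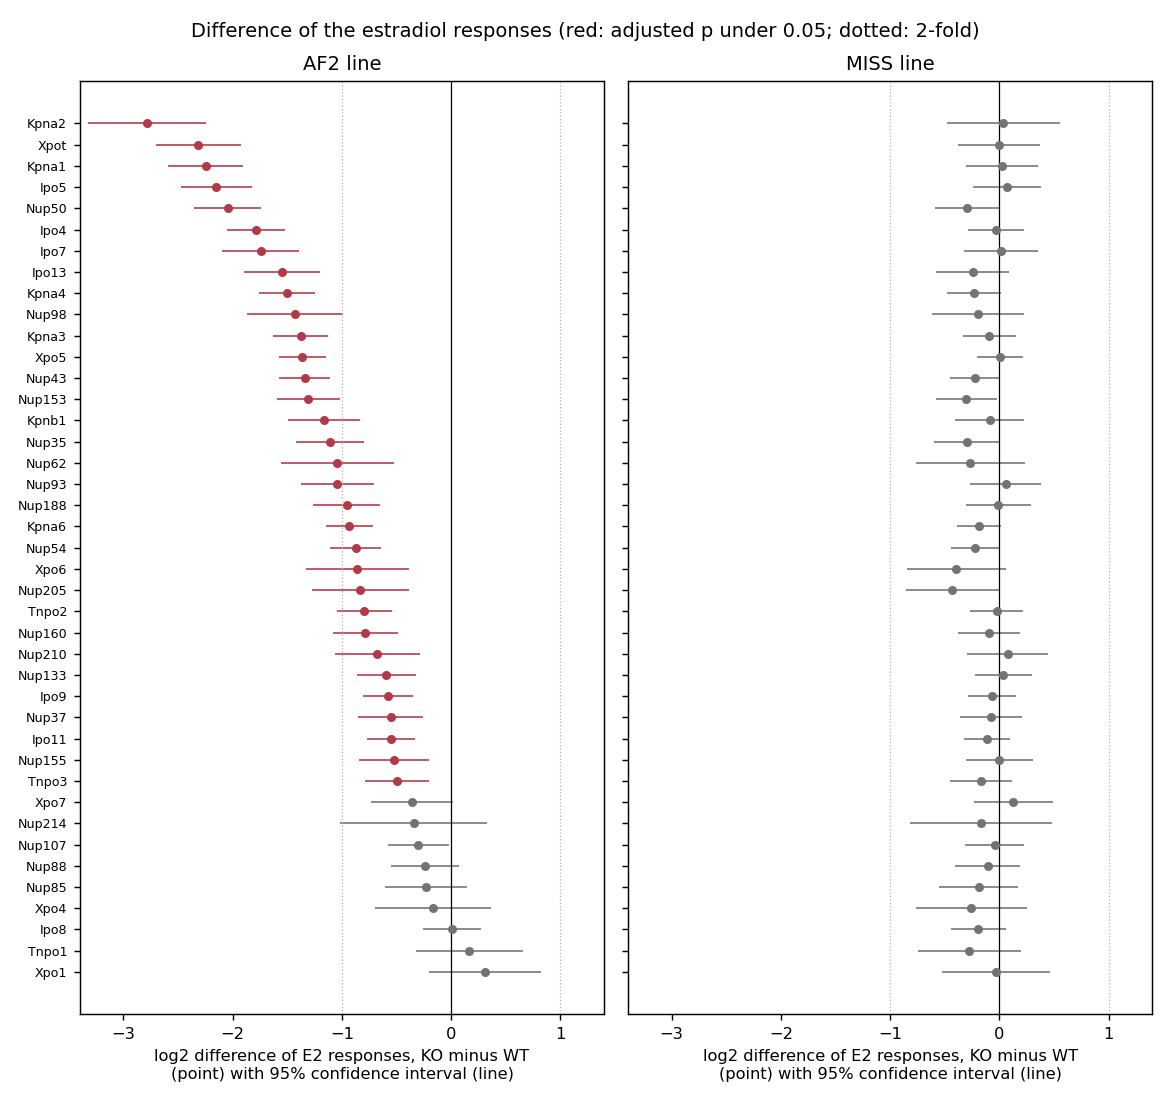
Difference of the E2 responses, KO minus WT (log2; points with 95% confidence intervals), of the 41 members in the AF2 line and the MISS line; red marks an adjusted p under 0.05 and dotted lines mark 2-fold. In the AF2 line 32 members lie to the left of 0 in red, and in the MISS line all intervals stay within the dotted lines.

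In MISS KO uteri the members rose as a set again. Of 41, 35 were called higher and 0 lower, where 28.8% of all genes were called higher and 28.5% lower, with a median of 0.82 against 0.00 for all genes and 0.76 to 0.87 within single slides. Every E2 array lay above every placebo array for 34 members (26.7% of all genes). The 35 were all among the 38 called in MISS WT and among the 36 called in both wild types. The 6 not called were Ipo8, Nup214, Nup85, Tnpo1, Xpo1 and Xpo7.

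Kpna2 read 1.27, 1.14, 1.19 and 1.01 under placebo and 4.43, 4.15, 4.16 and 3.83 under E2 in MISS KO (2.99 ± 0.18), and Kpna1 read -0.64, -1.03, -1.11 and -0.76 and 1.52, 1.38, 1.34 and 1.67 (2.36 ± 0.11). Xpot read 0.63, 0.69, 0.69 and 0.28 and 3.29, 3.28, 3.1 and 3.0 (2.59 ± 0.13), and Xpo5 read -0.32, -0.32, -0.16 and -0.12 and 1.14, 1.11, 1.01 and 1.22 (1.35 ± 0.07). None of these receptors had E2 arrays within the placebo range. Ipo5 read 0.32, -0.01, 0.15 and -0.09 and 2.69, 2.15, 2.29 and 2.49 (2.31 ± 0.11), and Ipo7 read -3.25, -3.35, -3.36 and -2.95 and -1.28, -1.25, -1.42 and -1.34 (1.90 ± 0.12). Xpo1 again overlapped, at 2.18, 2.41, 2.37 and 2.5 and 2.64, 1.78, 2.42 and 2.55 (-0.02 ± 0.17).

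In the pore, Nup50 read -1.13, -1.16, -1.23 and -1.12 and 0.65, 0.54, 0.39 and 0.70 (1.73 ± 0.10), and Nup153 read 1.88, 1.92, 1.77 and 1.75 and 2.87, 2.80, 2.66 and 2.5 (0.88 ± 0.10). Nup98 read 0.30, 0.20, 0.20 and 0.53 and 1.17, 1.18, 1.16 and 1.56 (0.96 ± 0.14), and Nup62 read 3.68, 3.63, 3.51 and 3.24 and 4.72, 4.53, 4.34 and 3.98 (0.88 ± 0.17). These basket and channel members were thus separate between the groups. Tpr, of the basket but outside the naming rule, was not called in MISS KO (0.54 ± 0.33, adjusted p = 0.18). Nup93 read 1.94, 1.77, 1.73 and 1.68 and 3.31, 3.31, 3.25 and 3.2 (1.49 ± 0.11), and Nup35 read 1.95, 2.12, 1.96 and 2.25 and 2.92, 2.66, 2.92 and 3.09 (0.83 ± 0.10). Nup43 read 1.07, 1.23, 1.13 and 1.15 and 2.25, 1.98, 2.07 and 2.12 (0.96 ± 0.08), and Nup160 read -0.35, -0.20, -0.18 and -0.02 and 0.68, 0.51, 0.55 and 0.78 (0.82 ± 0.10). The groups did not overlap for these 4 ring members; Nup85 of the outer ring did overlap. Nup210 read 1.85, 1.65, 1.83 and 1.62 and 2.73, 2.58, 2.49 and 2.61 (0.86 ± 0.13), and Nup88 read 1.71, 1.68, 1.83 and 1.48 and 2.14, 1.91, 2.25 and 2.09 (0.42 ± 0.10). Nup214 read -3.04, -3.8, -2.97 and -3.51 and -2.70, -3.60, -3.2 and -3.28 (0.14 ± 0.22), with overlap.

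No member had a called difference between the MISS KO and MISS WT responses (0 of 41 by limma, 4 with an unadjusted p under 0.05; 0.9% of all genes were called in either direction). The median difference was -0.09, against -0.08 for all genes, and all 41 confidence intervals stayed within 2-fold. For Kpna2 the interval of the difference was -0.48 to 0.55, for Xpot -0.38 to 0.37 and for Ipo5 -0.24 to 0.38. The 4 with an unadjusted p under 0.05 were smaller in the KO, Nup50 by -0.30 ± 0.14, Nup153 by -0.30 ± 0.14, Nup205 by -0.43 ± 0.21 and Nup35 by -0.30 ± 0.15. With slide as a block 3 were called, Nup153 (-0.30, adjusted p = 0.0342), Nup205 (-0.43, adjusted p = 0.0165) and Xpo6 (-0.40, adjusted p = 0.0227). The changes in MISS WT and MISS KO had r = 0.982 over the 41 members and 0.929 over all genes, with slides, probes and processing shared.

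The KO and WT groups were also compared with each other at the same treatment, under placebo in both lines and under E2 in the MISS line. AF2 KO and AF2 WT under E2 were not tested against each other directly. In the AF2 line 1 of 41 members was called under placebo, where 9.56% of all genes were called in either direction. That member was Nup210, at 1.31, 1.42, 1.22 and 1.02 in AF2 KO placebo, below every AF2 WT placebo array, a difference of -0.56 ± 0.13 (adjusted p = 0.00561). It stayed low under E2 in AF2 KO, at 1.08, 1.47 and 1.19, and the change there was 0.01 ± 0.14. Its second probe differed by -0.62 ± 0.21 under placebo (adjusted p = 0.060), and median scaling took the call away (-0.38). That scaling called 6 other members higher in AF2 KO (Ipo13, Nup188, Nup37, Nup43, Tnpo1 and Xpo5, by 0.30 to 0.55) and 0 lower. The share of all genes called under it is not given here. With slide as a block 4 were called, Nup210 (-0.56), Xpo4 (-0.49), Tnpo1 (0.37) and Ipo13 (0.26). Without AF2 WT placebo replicate 4 Xpo4 was called as well (-0.65).

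Under placebo in the MISS line 0 of 41 were called by limma, 2 with an unadjusted p under 0.05, where 0.923% of all genes were called in either direction. Nup210 differed there by -0.35 ± 0.13 (adjusted p = 0.241). Under E2, 1 of 41 was called, Nup50, singled out after its values were seen, lower in MISS KO by -0.42 ± 0.10 (adjusted p = 0.0179), where 2.03% of all genes were called lower. Its 4 KO arrays all lay below the 4 WT arrays. The call was lost without MISS WT E2 replicate 1 (-0.37), 2 (-0.41) or 3 (-0.42), without MISS KO E2 replicate 2 (-0.41) or 3 (-0.36), with median scaling (-0.37), with the authors' matrix (-0.35) and with only those 2 groups in the fit, and on slide 4 the difference was -0.08.

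The placebo and E2 groups can be read together from the median level of the 41 members on each array. It was 1.23 ± 0.16 (SD, n = 4) in AF2 WT placebo, 2.16 ± 0.09 in AF2 WT E2, 1.08 ± 0.10 in AF2 KO placebo and 1.14 ± 0.29 (n = 3) in AF2 KO E2. In the MISS line it was 1.20 ± 0.14 and 2.23 ± 0.05 in WT and 1.21 ± 0.05 and 2.21 ± 0.14 in KO. The lowest E2 array outside AF2 KO, at 2.08, was above the highest placebo array, at 1.41.

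**Figure D5:**
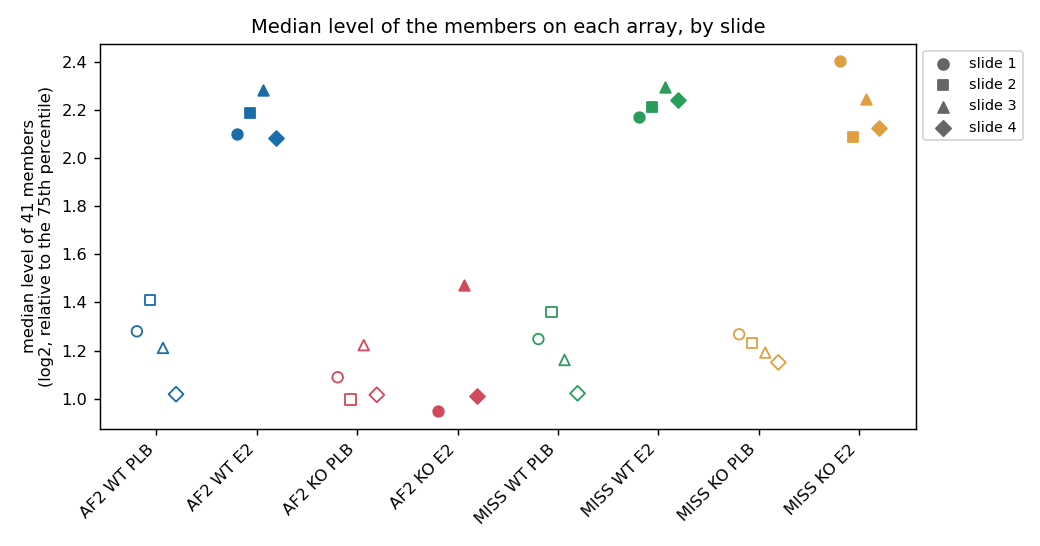
Median level of the 41 tested members (log2 relative to the 75th percentile of the array) on each of the 31 arrays, by group, with the marker shape giving the slide. E2 arrays of AF2 WT, MISS WT and MISS KO lie between 2.08 and 2.40, and placebo arrays and AF2 KO E2 arrays between 0.95 and 1.47.

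Genes outside the naming rule that work in the same pathway were read from fixed lists. The shares of all genes called higher and lower were 26.8% and 31.1% in AF2 WT and 33.8% and 28.1% in MISS WT. They were 28.8% and 28.5% in MISS KO, and 3.96% in either direction in AF2 KO. A lower response in AF2 KO than in AF2 WT was called for 21.8% of all genes. The Ran cycle supplies the GTP gradient that gives transport its direction. On its list, which also holds the transport factors Cse1l and Snupn, 9 of 9 genes rose in AF2 WT, with a median of 1.39. Ran itself rose by 2.22 ± 0.14, Rangap1, which activates its GTPase, by 2.51 ± 0.14 and its cofactor Ranbp1 by 1.85 ± 0.15. In AF2 KO 0 of 9 were called, with a median of -0.01, in MISS WT and MISS KO 9 of 9 rose, with medians of 1.61 and 1.51, and all 9 had a lower response in AF2 KO than in AF2 WT.

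Other pore proteins with names outside the Nup series gave 10 higher and 1 lower of 13 tested in AF2 WT, with a median of 0.86, and 0 called in AF2 KO. Sec13, a Y-complex subunit shared with the vesicle coat, rose by 1.60, the membrane-anchored Pom121 by 1.41 and the channel protein Nupl1 by 1.32, while Gle1, which acts on the cytoplasmic face in mRNA release, fell by 0.33. In MISS WT 11 rose and 1 fell, and in MISS KO 10 and 1.

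Of 18 genes of mRNA export, 15 rose and 1 (Nxt2, -0.33) fell in AF2 WT, with a median of 0.90. The helicase Ddx39 rose by 2.26, the THO complex subunit Thoc6 by 1.84 and the adaptor Alyref by 1.63. In MISS WT 14 rose and 1 fell, and in MISS KO 13 and 1. Alyref was the 1 gene of the list called in AF2 KO, by 0.36 ± 0.09 (adjusted p = 0.0154), against its rise of 1.63 in AF2 WT. That 1 of 18 is near the share of all genes called in AF2 KO (3.96%).

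Of 10 tested genes of S phase and mitosis, 3 rose (Pcna by 1.35, Rrm2 by 0.94 and Mcm2 by 0.34) and 3 fell (Cdk1 by -0.71, Mki67 by -0.85 and Ccnb1 by -0.90) in AF2 WT. These counts are near the shares of all genes (26.8% higher and 31.1% lower), and 0 were called in AF2 KO.

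Markers of the cell types in the uterus were read as well. Of all genes, 26.8% were called higher and 31.1% lower in AF2 WT, and 33.8% and 28.1% in MISS WT. The shares were 28.8% and 28.5% in MISS KO, and 3.96% in either direction in AF2 KO. In bulk RNA, fewer cells of a type and less RNA per cell cannot be told apart. Of 7 stromal markers 6 were lower with E2 in AF2 WT, and the summed level (relative to the 75th percentile, linear) lay between 458 and 551 under placebo and between 246 and 310 under E2. The 2 ranges were 491 to 638 and 274 to 307 in MISS WT, and 480 to 595 and 237 to 329 in MISS KO, with 4 of 7 markers lower in each. In AF2 KO they were 525 to 659 and 427 to 464, with 2 of 7 lower. Smooth muscle markers were 0 of 7 called in AF2 WT (599 to 855, then 667 to 974) and 6 of 7 higher in MISS WT (486 to 1060, then 791 to 1120). They were 5 of 7 higher in MISS KO (431 to 660, then 733 to 956) and 0 of 7 called in AF2 KO (577 to 671, then 433 to 632). Endothelial markers gave 1 higher and 2 lower of 6 in AF2 WT, and leukocyte markers 2 higher and 3 lower of 8, counts near the shares of all genes. The AF2 KO gave 0 of 6 endothelial and 1 of 8 leukocyte markers, which was higher. Leukocyte markers summed to 50.6 to 64.9 under placebo and 34.6 to 44.6 under E2 in AF2 WT, without overlap. In AF2 KO they went the other way, from 36.3 to 48.4 up to 54.1 to 70.9. The ranges overlapped in MISS WT (40.9 to 60.4, then 35.1 to 45.7) and MISS KO (40.5 to 46.4, then 32.7 to 42.2). Epithelial markers summed to 122 to 158 and 115 to 141 in AF2 WT and to 176 to 223 and 199 to 265 in AF2 KO. These sums rest on the brightest probes. Marker by marker, AF2 KO against AF2 WT under placebo gave 2 higher (Krt8 and Cdh1), 1 lower (Foxa2, -1.77) and 5 not called. In that comparison 9.56% of all genes were called in either direction. With E2, 3 of 8 epithelial markers were higher and 1 lower in AF2 WT, and 0 were called in AF2 KO. The part of these shifts in the changes of the transport genes was not tested.

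The members were also read on their other probes. Of 41 tested members, 15 had more than 1 tested probe, and of their 20 other probes 16 had the same sign and 14 the same call as the brightest in AF2 WT. The 2 with an opposite call were those of Ipo11 and Xpo7, and the 2 other probes of Tnpo1 gave -0.18 and -0.22, uncalled like the brightest.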

How the data were processed

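Per the file headers, the authors' deposited files hold, for each of 62976 spots, a processed intensity from Agilent Feature Extraction 10.10.1.1 with local background subtracted and spatial trend removed, not normalized between arrays, beside raw intensities and 0/1 values for outliers and signal well above background. The authors' deposited matrix holds log2 values of 43753 probes with equal column medians (7.56); its normalization is not given in the sources used here, and the submitters' processing notes name limma without a version or step. Each of its columns correlated best with its own array.

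Spots marked as outliers were set missing, log2 intensities were centred on the 75th percentile of the 59305 non-control spots of each array, and spots of a probe were averaged (55681 probes). Each gene was read by its brightest probe, and 26877 genes were fitted with limma 3.58.1 in R 4.3.3, with 8 group means over 31 arrays (residual df 23). The script was tested on simulated data. The 4 slides, numbered here, enter as a block and as values within a slide. Promoters are from RefSeq tables on GRCm38.p6; probe positions are on mm9, per the file headers.

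The members and lists were chosen with earlier results of these data known. Values on every array are given for the 2 largest called changes of each role in AF2 WT, for members called in the KO comparisons, and for up to 3 members called in neither wild type. Other genes named, because they make up a count of 5 or fewer or were singled out, were chosen after their values were seen. The alternatives were normexp background correction with an offset of 50, quantile normalization, median scaling, filters on dim probes, the authors' matrix, slide as a block, the mean over probes, fits on single contrasts and leaving out each array.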

Additional observations from a re-analysis of the deposited data

Results flagged for a closer look

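Within groups of 4 arrays, 8 of 140 sets of values had 1 array far from the others, and chance alone gives about 1 in 20. In AF2 WT E2, Kpna2 was 3.90 on replicate 4 and 4.26 to 4.33 on the others. In MISS WT placebo, Kpna1 was -1.03 on replicate 1 and -0.65 to -0.59 on the others, and Nup88 was 1.53 on replicate 2 and 1.61 to 1.62 on the others. In AF2 KO placebo, Nup35 was 1.98 on replicate 4 and 1.86 to 1.88 on the others. Xpot was 0.28 on replicate 4 of MISS KO placebo, where the others read 0.63 to 0.69, and 2.81 on replicate 4 of MISS WT E2, where the others read 3.36 to 3.42. In MISS KO E2, Nup98 was 1.56 on replicate 4 and 1.16 to 1.18 on the others, and Xpo7 was 0.36 on replicate 2 and 0.58 to 0.61 on the others.

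The response to E2 differed between AF2 KO and AF2 WT by limma's test of the difference for 32 members, all lower in the KO. Of all genes, 21.8% were called lower in that test and 31.2% higher. On the log2 scale the difference was -2.78 for Kpna2, -2.31 for Xpot, -2.25 for Kpna1, -2.15 for Ipo5, -2.05 for Nup50, -1.74 for Ipo7, -1.43 for Nup98, -1.36 for Xpo5, -1.34 for Nup43, -1.31 for Nup153, -1.11 for Nup35, -1.04 for both Nup62 and Nup93, -0.79 for Nup160 and -0.67 for Nup210. The calls of Nup93 and Nup210 were lost with the mean of the probes of each. That of Nup210 was also lost with quantile normalization and the authors' matrix. Between the wild types of the MISS and AF2 lines the response differed for 1 member, Xpo7, by -0.61, where 3.2% of all genes were called in that direction. That count is near this share. The second probe of Xpo7 did not share the difference, and its call was lost under several alternatives given above.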

How the results depend on the processing

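No paired analysis was possible because the labels give no replicate numbers that groups share; slides, which hold 7 or 8 of the groups each, were fitted as a block instead. Under the alternatives run, the members called higher were 35 to 39 in AF2 WT, 34 to 38 in MISS WT and 33 to 37 in MISS KO, and the lower responses of AF2 KO 30 to 38. Leaving out 1 array gave 37 to 39 calls and a median of 0.81 to 0.91 in AF2 WT, 0 to 1 and -0.05 to 0.01 in AF2 KO, 37 to 38 and 0.95 to 1.03 in MISS WT, 34 to 36 and 0.77 to 0.84 in MISS KO. It gave 32 to 33 and -0.97 to -0.85 for the AF2 difference, 0 and -0.16 to -0.06 for the MISS difference, 1 to 2 under placebo in the AF2 line, 0 in the MISS line, 0 to 1 under E2 in the MISS line and 0 to 2 between wild types. Members called in AF2 KO were 2 with normexp, 1 with quantile normalization, 6 with median scaling and 2 with slide as a block. AF2 KO against WT under placebo gave 2 with normexp, 6 with median scaling and 4 with slide as a block. MISS KO against WT under E2 gave 0 with median scaling, the authors' matrix or only its groups, and 2 with slide as a block; the MISS difference gave 3 with slide as a block. The wild-type difference gave 3 with normexp, 4 with slide as a block, and 0 with the authors' matrix, the mean of probes or only its groups. Medians moved to 0.78 (quantile) and 0.74 (authors' matrix) in MISS WT, 0.57 and 0.56 in MISS KO, and, with median scaling, 1.07 in AF2 WT and -1.27 for the AF2 difference. Uncalled values changed sign for Xpo1 in MISS WT with normexp (-0.0155), quantile normalization (-0.29), the authors' matrix (-0.31), and without 1 array (-0.14 to 0.14; below 0 without MISS WT placebo replicate 2 or 3 or E2 replicate 4), for the AF2 difference of Xpo1 with median scaling (-0.0931), and for that of Nup88 with quantile normalization (0.0052) and the authors' matrix (0.0028). The causes were not tested. The shares of all genes called under each alternative are not given, here or above. Counts under the alternatives thus show only how calls of members moved. Filters on dim probes changed no call of a member named here. Signal over background kept 1 member, Kpna7, from being tested.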
